A study of Mus musculus with 8 samples.

Results

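The genes described here separate 2 stem cell lines made from nascent testicular teratoma cells, CDGC1 and CDGC6, from E14tg2a embryonic stem (ES) cells. A gene was taken when its 4 derived libraries all lay above, or all lay below, its 4 E14tg2a libraries, on FPKM (fragments scaled to transcript length and library size) summed per gene symbol. Of 21985 named genes with a value, 11889 reached at least 1 FPKM in at least 2 libraries, and 3410 of these (28.7%) had no overlap between the arms. In 1561 (13.1%) the derived values were higher and in 1849 (15.6%) they were lower. The absence of overlap is the rule that chose the genes, so it is given as a description and carries no test. With median-ratio scaling between libraries the split turned from 1561 higher and 1849 lower to 1837 higher and 1476 lower, and with quantile normalization to 1674 and 1547, so the counts in each direction depend on the scaling.

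Each of the 4 groups had 2 libraries. CDGC1 (CDGC1-P3-9) and CDGC6 (CDGC6-P5-6) are independent lines from the testis of new-born mice of the 129Sv background that were homozygous for the ter mutation of Dnd1 (Dnd1ter/ter) and carried the reporter Oct4deltaPE-GFP, at passages 15 to 18. The E14tg2a cells are of strain 129/Ola and wild-type genotype, at passages 10 to 12, as untreated controls or with Dnd1 knocked down (Dnd1-KD). Serum and LIF were in the medium of every group. The arms therefore differed in Dnd1 genotype, strain, cell of origin, transgene and passage together, and these cannot be told apart. Each derived line is a single line, and no label says that a group's 2 libraries were grown separately, so p-values measure only the spread between libraries, which may be technical. Dnd1, an RNA-binding protein gene of the germ line, was listed in 1 entry with its neighbour Hars, at 60.1 to 81.3 FPKM in the derived lines and 53.9 to 65.8 FPKM in E14tg2a cells, which gives no measure of the knockdown.

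Mouse ES cells in serum and LIF sit between naive pluripotency, the state of the inner cell mass, and the primed state of the later epiblast, and they shift between them through NODAL, FGF, WNT and BMP signals. Imprinted genes are expressed from the maternal or the paternal copy only, as set by DNA methylation laid down in the germ line, and cultured stem cells are known to lose or gain such marks. E14tg2a is known as a line selected for lack of Hprt, the X-linked enzyme of purine salvage.

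The files gave FPKM and no counts, and the fragments implied by the deposited intervals came to between 10.7 and 18.0 (in units of 1e6) per library. Pearson's r of log2(FPKM + 1) across genes was 0.978 to 0.985 between the libraries of a group. It was 0.893 to 0.909 between CDGC1 and CDGC6, 0.937 to 0.949 between control and Dnd1-KD cells, and 0.855 to 0.959 between the arms. Some pairs across the arms were thus more alike than the derived lines were to each other. CDGC6 and control cells, at 0.951 to 0.959, were also more alike than the E14tg2a groups were to each other. Pou5f1, which encodes OCT4, was at 951 to 1339 FPKM in the derived lines and 457 to 944 FPKM in E14tg2a cells. Sox2, Nanog, Sall4 and Lin28a were also expressed in all 8 libraries, while Dppa4 was at 0.317 and 0.657 FPKM in CDGC1 and 85.6 and 159.8 in CDGC6. In bulk libraries such as these, fewer cells of a type and less RNA per cell cannot be told apart.

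Differences below are log2 differences of FPKM + 1, as the mean of both derived lines minus the mean of both E14tg2a groups ± SE, from limma over all 8 libraries with Benjamini-Hochberg adjustment over the 11889 genes. limma called 6875 genes (57.8%), 3014 higher (25.4%) and 3861 lower (32.5%). With median-ratio scaling the split was 3609 higher and 3242 lower, and with quantile normalization 3312 and 3436. Of the 3410 genes without overlap, 3313 were called, and 3562 further genes were called although their libraries overlapped. These p-values rest on the same values as the choice of genes and support nothing about it. With 1 mean per arm, so that the difference between the lines or groups of an arm entered the spread of its 4 libraries, 1186 genes passed, 1184 of them without overlap. When the 2 libraries of a group were averaged, so that 2 lines stood against 2 cell groups, 4 genes passed in limma, 840 at an unadjusted p under 0.05. They were Hprt, Mid1, Tceb2 and the joint entry Chmp2a/Mzf1/Ube2m. The last pair had 1 library near 0 and 1 library above 100 FPKM in each E14tg2a group, a spread that averaging hides, which leaves Hprt and Mid1.

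Most separations were narrow. The gap between the arms, taken as log2(FPKM + 1) of the lowest value in the higher arm minus that of the highest value in the lower arm, had a median of 0.158 in the higher genes and 0.157 in the lower genes. It was under 0.1 in 575 of the higher and 647 of the lower genes, while 79 genes (0.664% of those tested) had a gap of at least 2-fold on this scale, 52 higher and 27 lower. The genes at the edge of the rule show how thin it is. Ppap2c entered as higher with a lowest derived value and a highest E14tg2a value that were both 6.94 FPKM, and Qars missed by 84.36 against 84.37 FPKM. Eif2b1 and Gas2l3 lay just inside and Dscc1 and Cct3 just outside. Among lower genes, Cenpt, Med1 and Tmed8 lay just inside and Add1, Emc3 and Pex16 just outside.

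**Figure D1:**
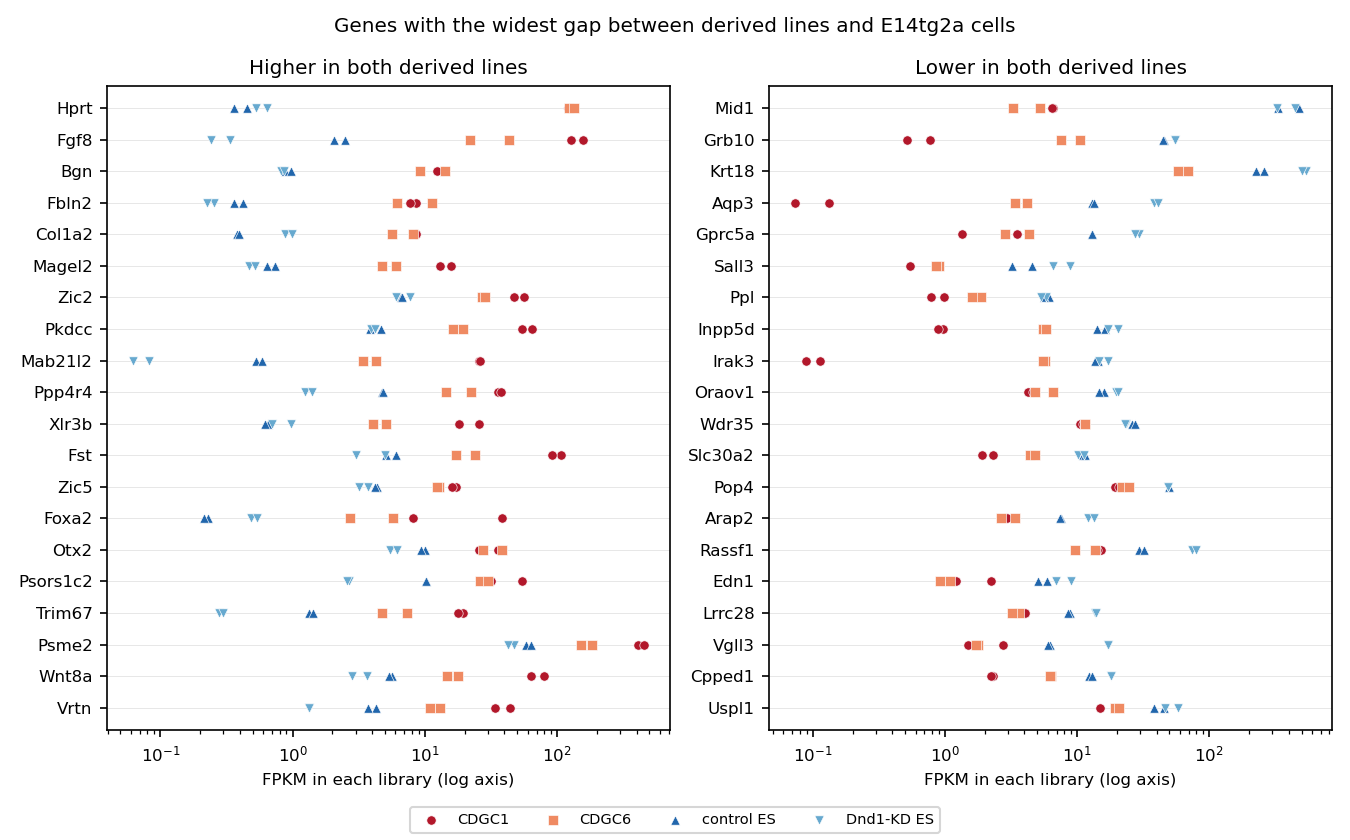
FPKM of each library on a log axis for the 20 higher and the 20 lower single genes with the widest gap. Each point is 1 library, coloured and shaped by group. Hprt and Mid1 show the widest spaces between the arms, and in Fgf8, Mab21l2, Aqp3 and Irak3 the points of CDGC1 and CDGC6 also stand apart from each other.

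The widest gap belonged to Hprt. Hprt was at 124 and 121 FPKM in CDGC1, 123 and 133 in CDGC6, 0.359 and 0.455 in control and 0.533 and 0.642 in Dnd1-KD cells. The 4 derived values lay close together and the E14tg2a values were all close to 0, with a gap of 6.22 and a difference of 6.40 ± 0.06 (adjusted p = 2.85e-07). Neither the derived lines nor the E14tg2a groups differed from each other beyond the test in this gene, with an adjusted p of 0.576 for CDGC1 against CDGC6 and of 0.157 for Dnd1-KD against control. Of 25 genes listed for Hprt and purine metabolism, 21 were tested, and the median difference of the list was 0.32 against -0.06 over all genes. Hprt, Adk, Gmps and Adssl1 were higher without overlap and none was lower. These 4 of 21 genes (19.05%) stand against 13.1% higher and 28.7% in either direction over all genes. Adk, adenosine kinase, was at 102 to 169 FPKM against 40.5 to 78.1 FPKM, with CDGC1 above CDGC6 and control above Dnd1-KD cells. Of the 17 genes listed around Hprt on the X chromosome, 13 were tested, and Phf6, Gpc3 and Smim10l2a were also higher without overlap. With Hprt these were 30.8% of the 13, against 26.8% higher without overlap among all tested X-linked genes. limma called 3 members of this list lower. Gpc3, a glypican, was at 24.8 and 33.3 FPKM in CDGC1, 34.7 and 32.2 in CDGC6, 15.3 and 15.9 in control and 11.2 and 12.3 in Dnd1-KD cells.

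Mid1 was the reverse case. Mid1 encodes a ubiquitin ligase of microtubules, and in laboratory mice the gene is known to run from the X chromosome into the pseudoautosomal region that X and Y share. It was at 6.53 and 6.47 FPKM in CDGC1, 3.28 and 5.24 in CDGC6, 329.6 and 479 in control and 328 and 446 in Dnd1-KD cells. No derived value came near an E14tg2a value, with a gap of 5.45 and a difference of -5.97 ± 0.18 (adjusted p = 9.13e-06). The 2 libraries of each E14tg2a group differed, but by far less than the distance to the derived values. The Mid1 locus overlaps another named gene, G530011O06Rik, which was listed at 0 in all E14tg2a libraries and at 1.18 to 3.54 FPKM in the derived lines, and fragments over the shared stretch could be counted to either. Erdr1, another gene known from the pseudoautosomal region, was at 163 to 358 FPKM in the derived lines and 637 to 991 FPKM in E14tg2a cells, also without overlap, at -1.50 ± 0.25 (adjusted p = 0.00323).

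The sequences around the start sites of these 2 X-linked genes are shown because Hprt and Mid1 had the widest gaps in the 2 directions. They are RefSeq promoters of build GRCm38.p6, 250 bases before to 50 after the start, 5′ to 3′ on the gene's strand, with the dinucleotide CG (the same on both strands) in capitals. The Hprt window lies at chrX:52987828-52988127, plus strand, and the Mid1 window at chrX:169684949-169685248, plus strand.
Hprt: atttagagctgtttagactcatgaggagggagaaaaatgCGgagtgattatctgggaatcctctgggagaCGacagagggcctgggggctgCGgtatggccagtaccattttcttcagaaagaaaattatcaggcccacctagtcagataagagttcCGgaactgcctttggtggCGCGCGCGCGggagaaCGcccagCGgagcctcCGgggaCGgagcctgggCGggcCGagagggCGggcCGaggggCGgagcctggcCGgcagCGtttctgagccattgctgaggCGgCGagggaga
Mid1: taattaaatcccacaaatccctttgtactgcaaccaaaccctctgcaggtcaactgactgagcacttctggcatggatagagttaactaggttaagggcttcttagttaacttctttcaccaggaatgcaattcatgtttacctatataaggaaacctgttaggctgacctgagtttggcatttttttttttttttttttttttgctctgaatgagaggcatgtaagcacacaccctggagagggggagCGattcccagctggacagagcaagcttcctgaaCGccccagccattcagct
The Hprt window held 22 CG dinucleotides and the Mid1 window 2. The median over 8497 tested genes with a promoter in the table was 21, and 54.0% and 3.01% of them had as many as Hprt and Mid1 or fewer. Among genes without overlap the median was 20 in 1073 higher and 22 in 1327 lower genes. In genes with a gap of at least 2-fold it was 13.5 in 34 higher and 17.0 in 11 lower genes.

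Without further scaling of the FPKM, lower genes outnumbered higher ones over the autosomes, while higher genes outnumbered lower ones on the X chromosome. Of its 429 tested genes, 115 were higher without overlap (26.8%) and 43 were lower (10.0%). On autosomes 12.6% were higher, 9.51% to 16.7% by chromosome, and 15.8% were lower, 11.1% to 21.3% by chromosome. The median difference over the X was 0.16, against -0.06 over autosomal genes and -0.14 to 0.01 on single autosomes. It was 0.22 for CDGC1 and 0.10 for CDGC6 against E14tg2a cells, and 0.13 against control and 0.16 against Dnd1-KD cells. The SD of the X median between libraries of a group was 0.03. Scaling did not turn the direction of the X median, which was 0.22 above that of all genes with median-ratio scaling. With quantile normalization it was 0.19 above. The counts over all genes did turn, to 1837 higher, 120 of them on the X, and 1476 lower with median-ratio scaling. With quantile normalization they were 1674 higher, 109 of them on the X, and 1547 lower. The excess of lower genes over the autosomes thus depends on the scaling. Without the filter on low values the X median was -0.0008 and that of all genes -0.02. Neighbouring genes are not independent, and no test was run on chromosomes.

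**Figure D2:**
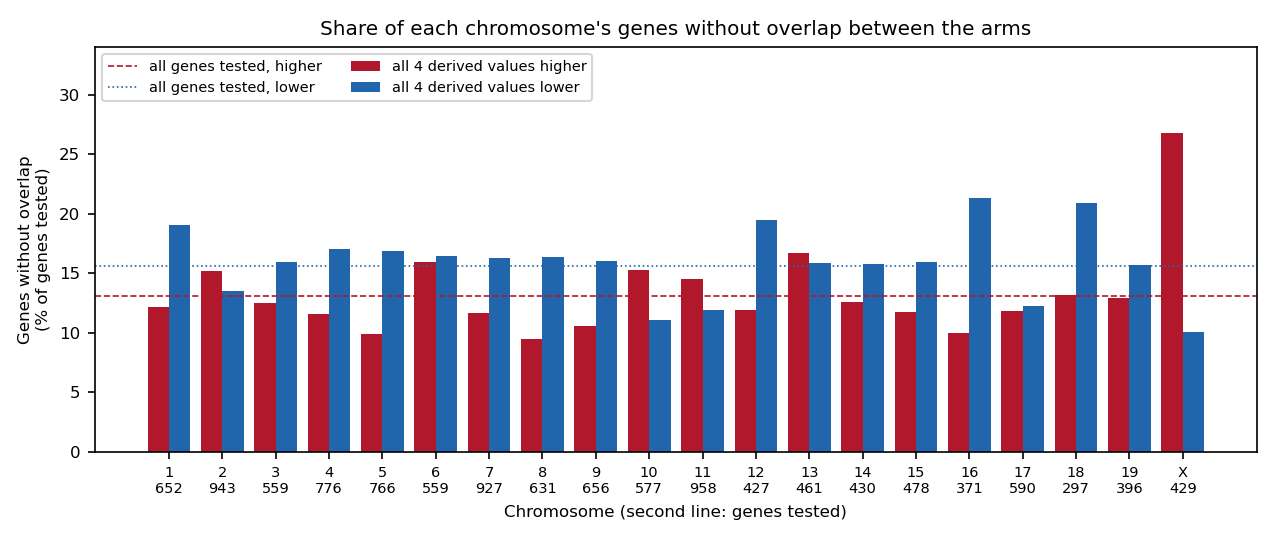
Share of each chromosome's tested genes whose 4 derived values all lay above (red) or all below (blue) the 4 E14tg2a values, with the number tested under each name and dashed and dotted lines at the shares over all genes. The X bar for higher genes stands at 26.8%, and the highest autosome reaches 16.7%.

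The shift ran along most of the X. In 8 of its 9 windows of 20 Mb with tested genes the median lay above the autosomal median. It was highest at 40 to 60 Mb, with 0.31 over 48 genes, 17 of them higher and 1 lower without overlap. The window at 160 to 180 Mb, which holds Mid1, had a median of -0.11 over 28 genes. Of the 11889 genes tested, 52 were higher with a gap of at least 2-fold, and 8 of these were among the 429 on the X. The most on an autosome were 5, of 927 tested on chromosome 7. The X-linked entries were Hprt, Map3k15, Bgn, Apln, G530011O06Rik, Xlr3b and the joint entries Xlr3a/Xlr3c and Otud5/Pim2/Slc35a2. Map3k15 and G530011O06Rik were listed at 0 in all E14tg2a libraries, and their loci overlap other named genes. Pgk1, the X-linked phosphoglycerate kinase of glycolysis, was at 827 to 961 FPKM in the derived lines and 262 to 449 FPKM in E14tg2a cells (1.37 ± 0.06, adjusted p = 2.22e-05). Xlr3b, a gene of the X-linked lymphocyte-regulated family whose copies are nearly alike, was at 4.08 to 25.9 FPKM against 0.624 to 0.977 FPKM, and its reads may be shared with the joint entry Xlr3a/Xlr3c (8.62 to 45.7 against 1.18 to 2.05 FPKM). Xist, the RNA that coats an inactive X, stayed under the filter at 0.043 to 0.563 FPKM in all 8 libraries. The Y-linked genes Eif2s3y (34.5 to 52.95 against 39.3 to 42.7 FPKM) and Uty (6.97 to 9.42 against 7.65 to 11.7 FPKM) were expressed in all groups. Kdm5d, another Y-linked gene, was at 4.82 and 5.42 FPKM in CDGC1, 0.0228 and 0.011 FPKM in CDGC6 and 0.012 to 0.0367 FPKM in E14tg2a cells. The number of X chromosomes per cell was not tested.

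Among imprinted genes without overlap, most of those known as maternally expressed were lower in the derived lines and most of those known as paternally expressed were higher. Of 29 genes listed as maternally expressed, 18 were tested, 3 were higher and 6 lower without overlap, and the median difference was -0.41. Of 33 listed as paternally expressed, 25 were tested, 8 were higher and 3 lower, and the median was 0.48. For CDGC1 and CDGC6 against E14tg2a cells the medians were -0.34 and -0.26 in the maternally expressed list, and 0.58 and 0.09 in the paternally expressed list. Without overlap were 50% of the tested maternally expressed and 44% of the paternally expressed genes, against 28.7% over all genes. The median over all genes was -0.06, and these lists were not tested against either value. Some members are neighbours, so the counts are not of separate loci. Cdkn1c, Phlda2, Slc22a18 and Cd81/Tssc4 lie side by side on chromosome 7, and Magel2, Peg12 and Snhg14/Snrpn/Snurf share another region of it. With 1 mean per arm, Phlda2 (adjusted p = 0.0529), Cd81/Tssc4 (0.0729) and Igf2r (0.107) among the 6 lower maternally expressed genes did not pass, nor did Commd1 (0.0585), Calcr (0.0996), Kcnq1ot1 (0.0540) and Slc38a4 (0.111). Commd1, Copg2 and Calcr were the maternally expressed genes that were higher.

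**Figure D3:**
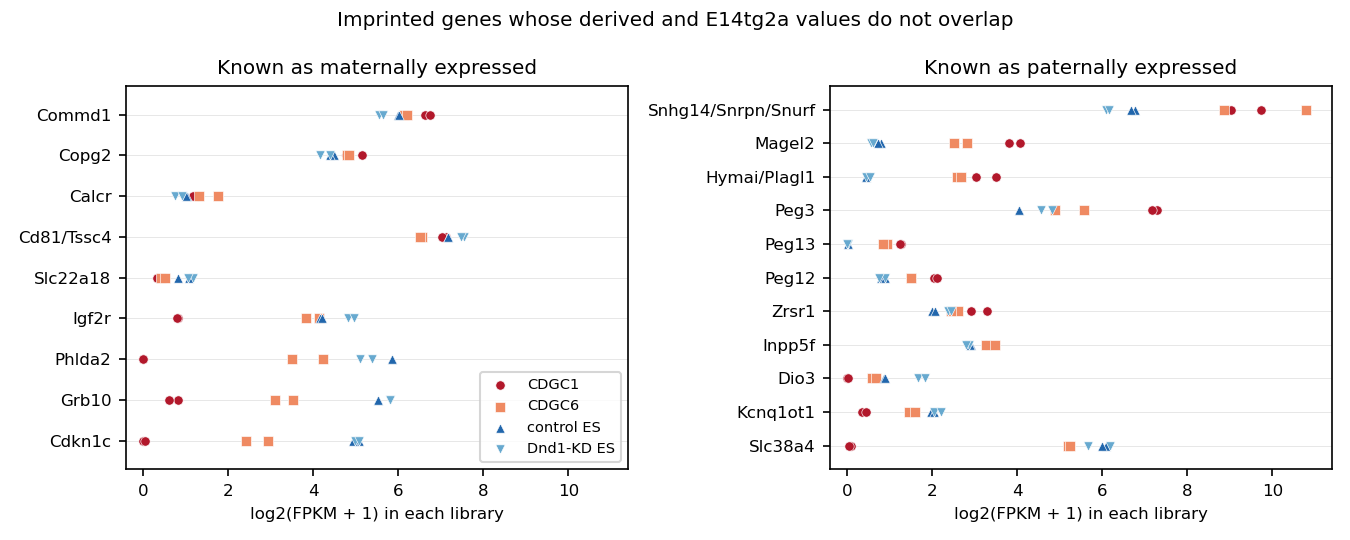
log2(FPKM + 1) of each library for the imprinted genes without overlap, maternally expressed on the left and paternally expressed on the right, sorted by the difference between arms. Cdkn1c, Grb10 and Phlda2 sit lowest in CDGC1, between in CDGC6 and highest in both E14tg2a groups, and Magel2 and Hymai/Plagl1 sit near 0 to 1 in E14tg2a cells and above 2 in the derived lines.

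Among maternally expressed genes, Grb10, an adaptor that restrains insulin and IGF signalling, was at 0.771 and 0.517 FPKM in CDGC1, 7.56 and 10.4 in CDGC6, 45.1 and 45.0 in control and 55.3 and 55.3 in Dnd1-KD cells. Both derived lines were lower than E14tg2a cells and CDGC1 was lower than CDGC6, with a difference of -2.59 ± 0.15 (adjusted p = 7.39e-05). Cdkn1c, which encodes the cell cycle inhibitor p57, was at 0 and 0.0333 FPKM in CDGC1, 4.31 and 6.71 in CDGC6, 32.6 and 29.8 in control and 30.7 and 33.0 in Dnd1-KD cells. Phlda2, a growth-restraining gene of placenta, was listed at 0 and 0 FPKM in CDGC1, 10.3 and 17.7 in CDGC6, 56.5 and 57.0 in control and 40.8 and 33.1 in Dnd1-KD cells. Igf2r, the receptor that removes IGF2, was at 0.761 and 0.747 FPKM in CDGC1, against 16.5 and 13.2 in CDGC6 and 16.9 to 30.2 in E14tg2a cells, so its separation in CDGC6 was narrow (gap 0.04). Meg3, a noncoding RNA of the Dlk1-Dio3 domain, overlapped. It was at 0.121 and 1.29 FPKM in CDGC1 but 218 and 208 in CDGC6, on both sides of the 68.8 to 101 FPKM of E14tg2a cells. H19, a noncoding RNA next to Igf2, overlapped as well, at 0.927 to 5.61 against 0.763 to 2.74 FPKM.

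Cdkn1c and Phlda2 belong to a run of neighbours. Counting runs of adjacent tested genes without overlap in 1 direction, 6 runs held at least 5 genes. One, at chr7:143052739-143503150, holds Cd81/Tssc4, Kcnq1ot1, Cdkn1c, Slc22a18 and Phlda2, which is the domain known to be governed by an imprinting centre at Kcnq1ot1. All 5 entries were lower, with a median of -1.11. Kcnq1ot1, the paternal noncoding RNA whose expression is known to silence the others on the same chromosome, was lower too, at 0.264 to 2.02 FPKM against 2.92 to 3.61 FPKM (-1.11 ± 0.07, adjusted p = 1.03e-04). Slc22a18 was at 0.243 to 0.424 against 0.779 to 1.24 FPKM and Cd81/Tssc4 at 90.9 to 137 against 143 to 186 FPKM. The loci of Kcnq1ot1, Cd81/Tssc4, Igf2r and Peg3 overlap other named genes, and as the use of strand is not given, reads on the 2 strands there cannot be told apart. The longest run, 7 lower genes from Arl13b to Vgll3 at chr16:62793685-65866368, had a median of -0.56. The other runs were Gm4971 to Akap13 and Usp17le to Prkcdbp on chromosome 7, Zfp131 to Tcstv3 on chromosome 13 and Crcp/Tpst1 to Sbds on chromosome 5, 5 genes each and all lower.

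Among paternally expressed genes, Magel2, of the Prader-Willi region, was at 12.9 and 15.7 FPKM in CDGC1, 6.05 and 4.73 in CDGC6, 0.741 and 0.64 in control and 0.468 and 0.521 in Dnd1-KD cells. The entry that joins Snhg14, Snrpn and Snurf, of the same region, was at 463 to 1776 FPKM against 67.2 to 108 FPKM, though replicate 1 of CDGC6 alone reached 1776 FPKM. Peg12, also of this region, was at 1.83 to 3.29 against 0.667 to 0.844 FPKM, while its neighbours Ndn (12.99 to 21.3 against 10.2 to 17.1) and Mkrn3 (2.71 to 3.93 against 1.46 to 2.86) overlapped through the Dnd1-KD libraries. Plagl1, a zinc finger gene listed with Hymai, was at 10.4 and 7.1 FPKM in CDGC1, 4.94 and 5.39 in CDGC6, 0.35 and 0.352 in control and 0.366 and 0.451 in Dnd1-KD cells. Peg3, another zinc finger gene, was at 156 and 143 FPKM in CDGC1 and 46.8 and 28.6 in CDGC6, where its lower value was close to the 15.3 to 27.0 FPKM of E14tg2a cells. Slc38a4, an amino acid transporter, went the other way, at 0.0566 and 0.0228 FPKM in CDGC1, 35.4 and 37.0 in CDGC6 and 49.95 to 71.1 in E14tg2a cells. Igf2 and Peg10 overlapped between the arms.

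The start sites of 4 imprinted genes with wide gaps are shown to set their CG content side by side, since marks of imprinting lie on CG. Windows and marks are as above. Grb10 is at chr11:12037371-12037670, minus strand, Phlda2 at chr7:143502475-143502774, minus strand, Plagl1 at chr10:13090582-13090881, plus strand and Magel2 at chr7:62376729-62377028, plus strand. For genes with several start sites the first in the RefSeq table was taken, which need not be the one used in these cells.
Grb10: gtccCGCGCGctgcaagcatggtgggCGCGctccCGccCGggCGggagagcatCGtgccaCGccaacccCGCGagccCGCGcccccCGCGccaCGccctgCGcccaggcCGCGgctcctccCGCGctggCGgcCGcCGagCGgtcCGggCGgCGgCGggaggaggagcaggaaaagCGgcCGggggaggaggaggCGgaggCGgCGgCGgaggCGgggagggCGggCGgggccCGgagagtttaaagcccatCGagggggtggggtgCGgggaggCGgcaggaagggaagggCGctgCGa
Phlda2: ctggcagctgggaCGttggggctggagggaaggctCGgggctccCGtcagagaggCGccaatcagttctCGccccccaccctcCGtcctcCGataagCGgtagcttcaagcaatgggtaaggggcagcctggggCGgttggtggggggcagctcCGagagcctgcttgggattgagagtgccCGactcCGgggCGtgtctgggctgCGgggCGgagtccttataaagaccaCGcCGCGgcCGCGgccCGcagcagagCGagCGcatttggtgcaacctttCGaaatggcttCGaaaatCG
Plagl1: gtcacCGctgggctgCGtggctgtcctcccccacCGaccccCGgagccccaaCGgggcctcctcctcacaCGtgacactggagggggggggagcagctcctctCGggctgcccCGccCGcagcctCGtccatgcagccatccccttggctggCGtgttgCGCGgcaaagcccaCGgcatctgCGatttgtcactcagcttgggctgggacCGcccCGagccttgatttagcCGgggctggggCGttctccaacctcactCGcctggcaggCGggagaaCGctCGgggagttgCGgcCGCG
Magel2: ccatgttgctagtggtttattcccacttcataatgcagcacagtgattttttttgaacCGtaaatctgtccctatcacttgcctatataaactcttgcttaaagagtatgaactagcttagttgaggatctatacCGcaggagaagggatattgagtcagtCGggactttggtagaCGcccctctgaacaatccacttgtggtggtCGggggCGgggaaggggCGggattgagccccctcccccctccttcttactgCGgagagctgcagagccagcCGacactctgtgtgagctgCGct
Grb10 held 45 CG dinucleotides, Phlda2 and Plagl1 26 each, and Magel2 10, where 96.6%, 67.5% and 17.4% of tested promoters have as many or fewer. The lower genes Grb10 and Phlda2 and the higher gene Plagl1 were thus all at or above the median of 21. Methylation itself was not measured.

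Genes of the epiblast and early primitive streak formed the list with the largest share of higher genes. Of 20 listed genes 19 were tested, 13 were higher and none lower without overlap, with a median difference of 1.82. That is 68.4% of those tested, against 13.1% higher over all genes. Fgf8, a growth factor of the streak, was at 128 and 158 FPKM in CDGC1, 43.0 and 22.1 in CDGC6, 2.04 and 2.48 in control and 0.338 and 0.243 in Dnd1-KD cells. CDGC1 stood above CDGC6 by 2.17 ± 0.29 (adjusted p = 0.00177), control above Dnd1-KD cells, and the lowest derived value was still far above the highest E14tg2a value (gap 2.73, difference 5.04 ± 0.21). Fgf5, the marker of primed epiblast, was in 1 entry with 1700007G11Rik at 18.0 to 117 against 0.89 to 3.29 FPKM. Transcription factors of this list followed. Otx2 was at 25.5 and 35.8 FPKM in CDGC1, 38.4 and 27.7 in CDGC6, 10.1 and 9.3 in control and 5.45 and 6.15 in Dnd1-KD cells, with no ordering of the derived lines. Zic2 was at 27.0 to 56.1 against 6.05 to 7.73 FPKM and its neighbour Zic5 at 12.4 to 17.1 against 3.16 to 4.32 FPKM. Streak genes T, or brachyury (43.7 to 77.1 against 1.63 to 23.7 FPKM), and Eomes (8.47 to 80.0 against 2.37 to 3.53 FPKM) were higher too. Foxa2, of the anterior streak and endoderm, was at 8.15 and 38.6 FPKM in CDGC1, where 1 library set most of the mean, and at 5.74 and 2.71 in CDGC6 and 0.214 to 0.539 in E14tg2a cells. Cer1, a secreted inhibitor of NODAL, and the mesendoderm factors Gsc and Lhx1 of the mesoderm list were highest in the same CDGC1 library, Cer1 at 1.74 and 16.1 FPKM in CDGC1, 2.62 and 0.533 in CDGC6 and 0.0699 to 0.122 in E14tg2a cells. The call of Cer1 (1.86 ± 0.59, adjusted p = 0.0347) held at 1.20 (adjusted p = 0.0240) without that CDGC1 library. It was lost without replicate 1 of CDGC6, at 1.55 (adjusted p = 0.105), and without any 1 of the E14tg2a libraries, at 1.85 to 1.87 (adjusted p = 0.0767 to 0.0861). Dnmt3b, a de novo methyltransferase, separated narrowly (144 to 262 against 43.7 to 136 FPKM), and Dnmt3l was at 0.883 and 1.1 FPKM in CDGC1 and 135 and 176 in CDGC6. Lef1, Sox3, Sox4 and Cdh2 overlapped.

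Several NODAL genes also separated. Of 24 NODAL and ACTIVIN genes 21 were tested, 9 were higher and none lower without overlap, with a median of 0.09. The higher genes were 42.9% of those tested, against 13.1% over all genes. Lefty1 and Lefty2, inhibitors and targets of NODAL, shared 1 entry at 217 and 288 FPKM in CDGC1, 301 and 379 in CDGC6, 50.9 and 55.1 in control and 14.01 and 8.08 in Dnd1-KD cells. The derived lines did not differ beyond the test here (adjusted p = 0.221), while Dnd1-KD cells were below control, with a difference of -2.21 ± 0.26 (adjusted p = 0.0028). Fst, follistatin, which binds ACTIVIN, was at 17.1 to 107 against 3.04 to 6.08 FPKM. The co-receptor Tdgf1 (376 to 469.9 against 70.1 to 252 FPKM) and the DNA-binding partner Foxh1 (40.8 to 79.0 against 24.3 to 30.7) were higher. The ligand Nodal overlapped narrowly at 37.7 to 81.9 against 26.9 to 39.5 FPKM. The receptor gene Acvr1b and the signal transducer genes Smad2, Smad3 and Smad4 overlapped as well. In the WNT list, 27 of 30 were tested, 5 were higher and 2 lower, with a median of 0.23, and the share without overlap (25.9%) was below the 28.7% of all genes. Wnt8a, a streak ligand, was at 14.7 to 79.3 against 2.84 to 5.65 FPKM, and Wnt7b (0.465 to 1.4 against 3.81 to 5.09) and Wnt6 (0.0779 to 0.358 against 1.5 to 1.93) were lower.

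BMP genes were mostly lower where they separated. Of 22 listed 20 were tested, 8 were lower and 1 higher without overlap, with a median of -0.48. Together they were 45% of those tested, against 28.7% over all genes. Bmp4, the ligand that works beside LIF in serum, was at 1.32 and 1.02 FPKM in CDGC1, 10.3 and 11.2 in CDGC6 and 14.6 to 22.5 in E14tg2a cells. Its targets Id1 (15.3 to 79.4 against 80.0 to 108 FPKM) and Id2 (8.93 to 43.3 against 47.3 to 58.9) were lower, Id1 by a gap of only 0.01, and Id3 overlapped. Grem1, a secreted BMP antagonist, was the higher gene, at 2.4 and 3.73 FPKM in CDGC1, 2.43 and 4.09 in CDGC6, 0.198 and 0.192 in control and 0.201 and 0.378 in Dnd1-KD cells. The receptors Bmpr1a and Bmpr2 and the transducers Smad1 and Smad5 overlapped.

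The genes of pluripotency itself did not separate as a block. Of 16 ES cell identity genes, all were tested, and Pou5f1, Lin28a, Tdgf1, Epcam and L1td1 were higher without overlap, with none lower and a list median of -0.12. Their share of the list was 31.25%, where all genes gave 28.7% in either direction and 13.1% higher. In Pou5f1 the gap was 0.01, and its highest value, in replicate 2 of CDGC6, has a failed status in the deposited file. The difference of the derived lines was 0.23 from control cells (adjusted p = 0.111) and 1.16 from Dnd1-KD cells (adjusted p = 2.08e-04). Sox2 and Nanog overlapped. Of 20 naive pluripotency genes 18 were tested, and limma called all 18 lower with a median of -2.02, yet 4, Tbx3, Stat3, Pecam1 and Mylpf, separated without overlap. These 4 were 22.2% of those tested, against 15.6% lower and 28.7% in either direction over all genes. Zfp42, which encodes REX1, was at 0.022 and 0 FPKM in CDGC1 and 223 and 304 in CDGC6, within the 178 to 352 FPKM of E14tg2a cells. The list median was -3.84 for CDGC1 and -0.10 for CDGC6 against E14tg2a cells. Esrrb (0.211 and 0.14 against 56.2 and 74.6 FPKM) and Nr0b1 (0.0221 and 0 against 21.1 and 37.8 FPKM) had the same form in CDGC1 and CDGC6.

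Genes of the extracellular matrix were among those higher in both derived lines. Of 25 genes listed as fibroblast or feeder markers 22 were tested, 11 were higher and none lower without overlap, with a median of 0.74. The 11 were 50% of those tested, against 13.1% higher over all genes. Bgn, the proteoglycan biglycan, was at 13.7 and 12.4 FPKM in CDGC1, 9.13 and 14.3 in CDGC6, 0.884 and 0.981 in control and 0.813 and 0.864 in Dnd1-KD cells. Fbln2, fibulin 2, was at 8.61 and 7.8 FPKM in CDGC1, 6.2 and 11.3 in CDGC6, 0.42 and 0.364 in control and 0.255 and 0.225 in Dnd1-KD cells. The derived lines did not differ beyond the test in either gene, with adjusted p of 0.487 in Bgn and 0.925 in Fbln2. Col1a2, a chain of type I collagen, was at 5.67 to 8.64 against 0.381 to 0.995 FPKM, Col1a1 at 9.12 to 20.3 against 3.04 to 4.81 and Col6a1 at 1.65 to 3.17 against 0.252 to 0.387. The summed FPKM of the whole list was 481 to 1344 in the derived lines and 478 to 1161 in E14tg2a cells, so the sum overlapped. The largest parts of it, Vim (122 to 899 against 112 to 309.5 FPKM) and Tagln (118 to 217 against 215 to 555 FPKM), overlapped. Among further markers of fibroblasts or feeders, Dcn was at 0.0884 to 0.568 against 0.073 to 0.116 FPKM and Lum at 0 to 0.0563 FPKM in all libraries. Thy1 (2.36 to 5.96 against 2.04 to 2.28 FPKM) and Pdgfrb (0.768 to 1.59 against 0.32 to 0.677) were higher without overlap. So was Postn, at 0.745 to 2.17 against 0.0432 to 0.154 FPKM. Col3a1 overlapped, at 1.38 to 2.3 against 0.607 to 1.715 FPKM. The part of other cells in the matrix genes was not tested. Of 20 genes listed for testis somatic cells 5 passed the filter and none was higher without overlap, while their summed FPKM was 122 and 96.0 in CDGC1, 33.5 and 29.1 in CDGC6 and 43.3 to 63.9 in E14tg2a cells, so CDGC1 lay above and CDGC6 below E14tg2a cells. Wt1 (5.89 and 3.84 FPKM) and Cyp11a1 (1.99 and 1.79 FPKM) were highest in CDGC1, and Fshr was listed at 0 in all libraries. Of 18 listed for leukocytes 3 were tested, and 1 was lower without overlap. It was Laptm5, at 0.208 and 0.413 FPKM in CDGC1, 9.52 and 12.2 in CDGC6 and 21.5 to 23.8 in E14tg2a cells. Among those under the filter, Ptprc, Csf1r, Lyz2 and Tyrobp were at or under 0.12 FPKM in all libraries, and Cd3e was listed at 0 in CDGC1 and at 0.269 and 0.542 FPKM in CDGC6 and 0.628 to 1.04 FPKM in E14tg2a cells. Cd79a was at 0.0313 and 0.0252 FPKM in CDGC1, 0.871 and 0.974 in CDGC6 and 0.464 to 0.690 in E14tg2a cells. The leukocyte list summed to 1264 to 1446 FPKM against 1078 to 1724 FPKM, nearly all of it from a joint entry of Cd68 with Eif4a1 and other genes. The part of testis somatic cells and leukocytes in the results was not tested.

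Many genes known to respond to interferon were higher. Of 37 listed 28 were tested, 15 were higher and 1 lower without overlap, with a median of 0.89. Both directions came to 57.1% of those tested, against 28.7% over all genes. Isg15, a ubiquitin-like protein, was at 40.9 and 51.2 FPKM in CDGC1, 8.94 and 7.58 in CDGC6, 2.96 and 3.64 in control and 1.28 and 1.33 in Dnd1-KD cells. Irf1, a transcription factor of this response, was at 40.8 to 109 against 12.4 to 25.3 FPKM and the GTPase Irgm1 at 15.4 to 108 against 4.89 to 10.4 FPKM. In these genes CDGC1 was the higher of the derived lines, and control was above Dnd1-KD cells. The list median was 1.38 for CDGC1 and 0.43 for CDGC6 against E14tg2a cells. Stat2, which carries the signal, overlapped. Of 27 genes for MHC class I and antigen presentation 17 were tested, 8 were higher and none lower without overlap, with a median of 0.52. The 8 were 47.1% of those tested, against 13.1% higher over all genes. The activator Psme2, which opens the proteasome, was at 151 to 458 against 42.8 to 63.3 FPKM and the immunoproteasome subunit Psmb9 at 6.9 to 22.6 against 2.48 to 3.72 FPKM. B2m, the light chain of class I, and H2-K1 overlapped, B2m at 35.4 to 63.8 against 37.2 to 95.7 FPKM.

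Glycolytic enzymes formed a further higher group. Of 37 genes for hypoxia and glycolysis 36 were tested, 15 were higher and 1 lower without overlap, with a median of 0.59. Genes without overlap were 44.4% of those tested, against 28.7% over all genes. Ldha, lactate dehydrogenase, was at 1475 and 1648 FPKM in CDGC1, 1519 and 1463 in CDGC6, 776 and 729 in control and 384 and 332 in Dnd1-KD cells. The derived lines lay close together and Dnd1-KD cells were the lowest group. Tpi1, in 1 entry with Usp5, was at 516 to 581 against 182 to 339.6 FPKM, Pkm at 1912 to 2246 against 934 to 1507 and Gapdh at 2387 to 2597 against 1735 to 2325, the last with a gap of 0.04. The glucose transporter Slc2a3 was lower, at 173 to 264 against 327 to 376 FPKM, and Hif1a and Slc2a1 overlapped.

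**Figure D4:**
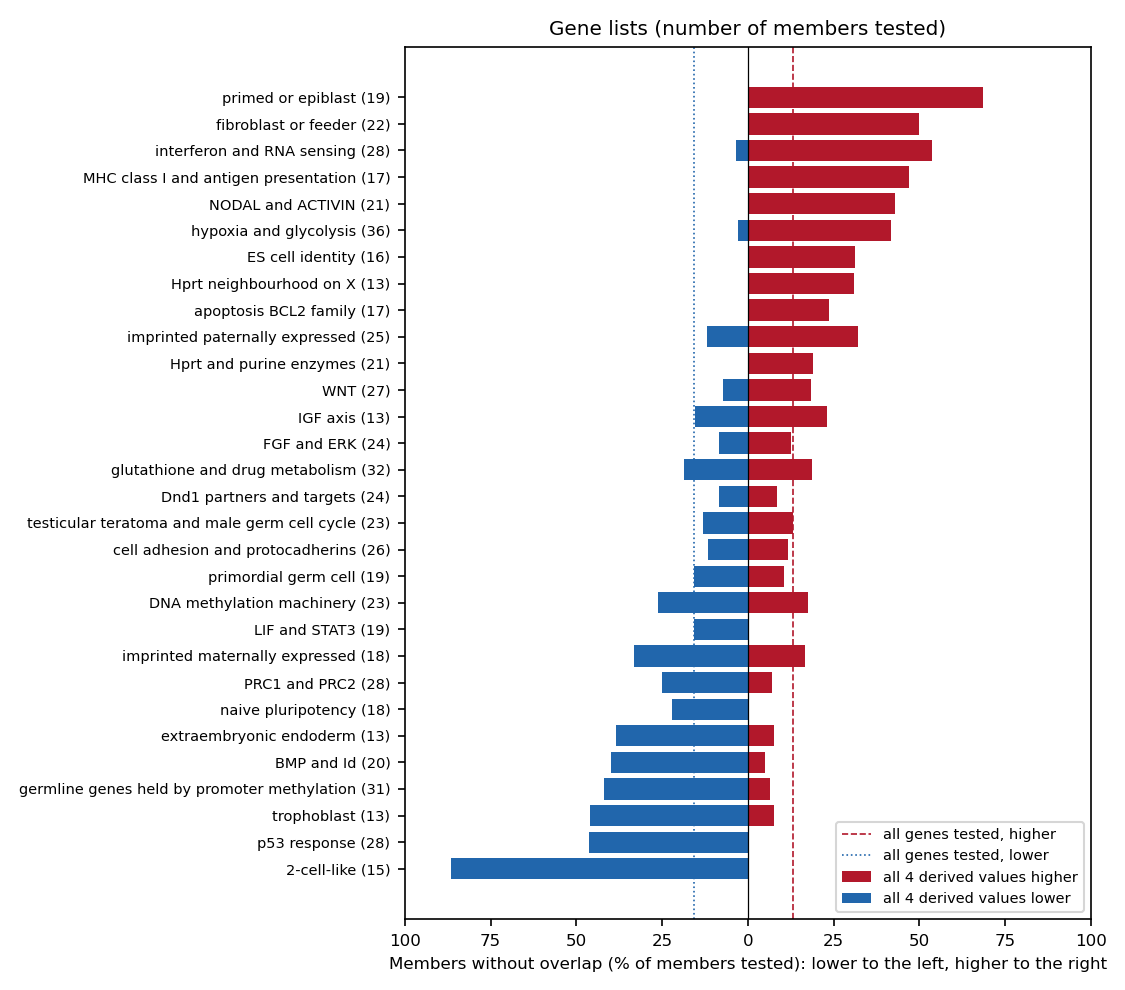
Members without overlap in each gene list with at least 13 members tested, as a share of those tested, lower to the left in blue and higher to the right in red, with lines at the shares over all genes. The epiblast list reaches 13 of 19 higher and the list of genes of the 2-cell-like state 13 of 15 lower.

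On the lower side, Krt18, a keratin of simple epithelia, had 1 of the widest gaps. It was at 69.6 and 61.8 FPKM in CDGC1, 68.9 and 58.5 in CDGC6, 224 and 258 in control and 544 and 500.4 in Dnd1-KD cells. The derived lines did not differ beyond the test (adjusted p = 0.769), and Dnd1-KD cells were above control, with a difference of 1.11 ± 0.12 (adjusted p = 0.00208). Its partner Krt8, in 1 entry with Krt5 and Krt78, was at 81.6 to 165 against 255 to 509.7 FPKM. The water and glycerol channel Aqp3 was at 0.0732 and 0.133 FPKM in CDGC1, 3.4 and 4.19 in CDGC6 and 12.99 to 40.6 in E14tg2a cells, and the cell junction protein periplakin, Ppl, at 0.788 to 1.87 against 5.34 to 6.18 FPKM. Epithelial genes did not share a direction, since Epcam was higher without overlap (135 to 169 against 85.9 to 122 FPKM) and Cdh1, which encodes E-cadherin, overlapped (76.7 to 172 against 122 to 151 FPKM). Hand1 (0.104 to 0.394 against 1.96 to 6.28 FPKM) and Esx1 (0.101 to 0.496 against 1.76 to 2.64 FPKM), transcription factors of trophoblast, were lower as well. Of 17 trophoblast genes 13 were tested, 6 were lower and 1, Eomes, was higher, with a median of -0.63. Of 22 extraembryonic endoderm genes 13 were tested, 5 were lower and 1, Foxa2, was higher, with a median of -0.23. The shares without overlap were 53.85% for trophoblast and 46.15% for extraembryonic endoderm genes, against 28.7% over all genes. Gata4 (0.176 to 0.538 against 0.693 to 2.46 FPKM) and the basement membrane chain Col4a1 (6.17 to 7.22 against 10.0 to 44.4 FPKM) were among the lower ones.

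Most tested genes known from the rare 2-cell-like state of ES cultures were lower. Of 26 listed 15 were tested, 13 were lower and none higher without overlap, with a median of -1.68. Lower genes were 86.7% of those tested, against 15.6% over all genes. Zscan4c was at 0.0226 and 0.0137 FPKM in CDGC1, 2.07 and 3.73 in CDGC6, 7.71 and 6.94 in control and 20.6 and 23.8 in Dnd1-KD cells. The 4 groups kept 1 order, CDGC1 lowest, then CDGC6, then control, with Dnd1-KD cells highest, and Zscan4f (0.00721 and 0.0232, 2.71 and 4.66, 10.3 and 9.08, and 26.2 and 30.0 FPKM in the same order) and Tcstv3 (0.0521 to 0.65 against 1.98 to 5.48 FPKM) followed it. Copies of these families are nearly alike, so reads may be split between them and the 13 genes are not 13 separate measurements. Eif1a, a gene for a translation factor, was at 66.7 to 77.5 against 84.1 to 88.2 FPKM, a difference of -0.25 ± 0.06. Eif4e3 and Sp110 were the tested members that overlapped.

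Many targets of p53 were lower too. All 28 listed genes were tested, 13 were lower and none higher without overlap, with a median of -0.74, though Trp53 itself overlapped at 187 to 213 against 168 to 219.5 FPKM. The 13 were 46.4% of the list, against 15.6% lower over all genes. Mdm2, which degrades p53, was at 77.6 and 68.0 FPKM in CDGC1, 34.6 and 39.4 in CDGC6, 97.8 and 95.5 in control and 218 and 244 in Dnd1-KD cells. Trp53inp1 was at 33.4 to 43.5 against 68.0 to 149 FPKM and Plk2 at 14.8 to 52.4 against 59.4 to 195 FPKM. In all 3 genes Dnd1-KD cells had the highest values, and the list median was -1.03 against Dnd1-KD and -0.47 against control cells. Cdkn1a, Bax, Ccng1 and Perp overlapped. Hspa1a and Hspa1b, heat shock genes in 1 entry outside this list, were at 2.88 to 7.54 FPKM in the derived lines, 38.2 and 52.5 in control and 351 and 622 in Dnd1-KD cells. Gadd45a, a stress gene of the list on DNA methylation, was at 13.1 to 35.1 against 64.5 to 69.9 FPKM. That list had 4 higher and 6 lower of 23, and the PRC1 and PRC2 list 2 higher and 7 lower of 28 tested. Their shares without overlap were 43.5% and 32.1%, against 28.7% over all genes.

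Germ line genes known to be silenced by promoter methylation were lower in 13 and higher in 2 of 31 tested, of 41 listed, with a median of -0.91. The median was -1.58 for CDGC1 and -0.10 for CDGC6 against E14tg2a cells. Genes without overlap came to 48.4% of those tested, against 28.7% over all genes. Sycp3, of the meiotic chromosome axis, was at 0 and 0 FPKM in CDGC1, 15.7 and 22.9 in CDGC6, 43.5 and 40.1 in control and 86.5 and 86.0 in Dnd1-KD cells. Ddx4, the germ cell helicase, was at 0.0137 and 0.0221 FPKM in CDGC1, 9.62 and 11.8 in CDGC6 and 15.4 to 22.6 in E14tg2a cells, and Tex19.1 at 0.916 and 1.0 FPKM in CDGC1, 17.3 and 22.3 in CDGC6 and 37.5 to 45.0 in E14tg2a cells. Mael, Hormad1 and Rhox5 overlapped, with CDGC1 lower than E14tg2a cells in each and CDGC6 reaching 76.7 and 101 FPKM of Rhox5 against 42.5 to 52.1 in E14tg2a cells. Xlr3a/Xlr3c and Xlr4b were the 2 higher entries.

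Of the genes without overlap, 54 higher and 87 lower ones had a library listed at 0, where no fold change is given. Besides Cdkn1c and Phlda2, the genes Aard, Nefh, Halr1, Rpl10l and Syce1 had at least 5 FPKM in every E14tg2a library and a value of 0 in at least 1 CDGC1 library. Rpl10l, a retrogene of a ribosomal protein active in testis, was at 0.0429 and 0 FPKM in CDGC1, 12.4 and 17.8 in CDGC6 and 21.02 ± 1.78 (SD, n = 4) in E14tg2a cells. Enoph1, Mrpl41 and Fam149b were listed at 0 in both libraries of 1 E14tg2a group but not in the other, and an exact 0 may be a failed estimate. Enoph1 was at 0 in control but 27.4 and 25.7 FPKM in Dnd1-KD cells. Map3k15, at 8.69 to 24.4 FPKM in the derived lines, was listed at 0 in all E14tg2a libraries, and its locus overlaps another named gene.

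The other gene lists varied in share and direction. Of 24 FGF and ERK genes tested, 3 were higher and 2 lower, the latter the receptor Fgfr2 (1.44 to 4.08 against 4.96 to 5.35 FPKM) and the ERK phosphatase Dusp4. Of 19 LIF and STAT3 genes, 3 were lower and none higher: the receptor Lifr (1.74 to 5.3 against 5.55 to 7.89 FPKM), the kinase Jak1 (9.85 to 11.1 against 12.9 to 27.0) and Stat3. Of 9 mesoderm genes 4 were higher and 3 lower, and of 10 neural genes 1 was higher and 3 lower. The glutathione and drug metabolism list had 6 higher and 6 lower of 32. Shares without overlap were 20.8% for FGF and ERK, 15.8% for LIF and STAT3 and 37.5% for glutathione genes. They were 77.8% for mesoderm and 40% for neural genes, against 28.7% over all genes. For LIF and STAT3, where all were lower, the share of lower genes over all genes was 15.6%. Nqo1, a quinone reductase known as a target of NRF2, was at 1.24 to 6.81 against 8.04 to 12.8 FPKM, and Cyp26a1, which degrades retinoic acid, at 6.1 to 63.4 against 1.3 to 3.77.

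Lists close to the biology of teratoma and Dnd1 were also mixed. Of 23 genes for testicular teratoma and the male germ cell cycle, 3 were higher (Cdk4, Rbl1 and Tdgf1) and 3 lower (Cdkn2b, Rb1 and Dmrt1). Rb1, the retinoblastoma gene, was at 3.86 and 4.21 FPKM in CDGC1, 3.8 and 3.42 in CDGC6, 7.49 and 7.46 in control and 12.9 and 13.5 in Dnd1-KD cells. The derived lines lay close together below both E14tg2a groups, and Dnd1-KD cells were the highest group. Dmrt1, a regulator of male germ cells, was at 0.343 and 0.249 FPKM in CDGC1, 6.5 and 7.55 in CDGC6 and 9.52 to 12.8 in E14tg2a cells. Of 24 partners and targets of Dnd1, 2 were higher, Ezh2 among them, and 2 lower (Tob1 and Cdkn1c). Of 19 primordial germ cell genes, 2 were higher and 3 lower. Prdm1, the regulator BLIMP1, was at 2.05 to 4.97 against 1.06 to 1.69 FPKM, while Prdm14, Tfap2c and Kit overlapped. The BCL2 family had 4 higher of 17 (Bcl2, Bak1, Bok and Bid), the IGF axis 3 higher and 2 lower of 13, and cell adhesion genes 3 higher and 3 lower of 26. Of 7 genes tested in the list of X inactivation and Y-linked genes, Ftx was higher, at 2.96 to 4.0 against 1.45 to 2.52 FPKM. Shares without overlap were 26.1% for teratoma, 16.7% for Dnd1, 26.3% for primordial germ cell and 23.5% for BCL2 genes. They were 38.5% for the IGF axis, 23.1% for cell adhesion and 14.3% for X inactivation, against 28.7% over all genes. In the BCL2 and X inactivation lists all of these were higher, against 13.1% higher over all genes.

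A stricter set, chosen after the values were seen, has a gap of at least 0.5 that is also wider than the range within either arm. It held 148 of the 399 genes with such a gap, 87 higher and 61 lower. In these genes the arms lay farther apart than any libraries of the same arm. Emb, embigin, a partner of lactate transporters, was at 121 and 144 FPKM in CDGC1, 138 and 132 in CDGC6, 52.9 and 47.2 in control and 27.4 and 26.8 in Dnd1-KD cells. Wdr35, a subunit of the intraflagellar transport machinery of cilia, was at 10.6 and 11.2 FPKM in CDGC1, 11.44 and 11.5 in CDGC6, 26.1 and 27.3 in control and 23.4 and 23.2 in Dnd1-KD cells. Pop4, a subunit of RNase P, was at 19.3 to 24.8 against 48.4 to 49.8 FPKM. In Wdr35 and Pop4 every group lay within a narrow band on its side. Neither showed a called difference between the derived lines, with adjusted p of 0.425 in Wdr35 and 0.0894 in Pop4.

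Within the arms, the genes without overlap still varied. CDGC1 against CDGC6 was called by limma in 5608 of all genes (47.2%) and in 1303 of the genes without overlap (38.2%), and in 48 of the 79 with a gap of at least 2-fold. CDGC1 was the line farther from E14tg2a cells in 1170 of those 1303 (89.8%), against 71.3% of all 5608 called genes, and in 45 of the 48. Dnd1-KD against control was called in 4309 of all genes (36.2%) and in 1306 of those without overlap (38.3%), and Dnd1-KD was the group farther from the derived lines in 1227 of them (94.0%), against 78.2% of all 4309. Leaving out 1 library moved the 1306 to as few as 487 or 538 without a control library and 558 without replicate 2 of Dnd1-KD, and to as many as 1747 without replicate 1 of CDGC1. Requiring every library to separate leaves room for differences away from the other arm and little for those towards it, so these shares are descriptions. Apln, an X-linked peptide hormone gene, shows how far the lines can differ inside the rule, at 62.7 and 62.3 FPKM in CDGC1, 5.19 and 4.7 in CDGC6 and 0.351 to 1.8 in E14tg2a cells. Irak3, a brake on Toll-like receptor signalling, shows it on the lower side, at 0.089 and 0.113 FPKM in CDGC1, 5.68 and 5.5 in CDGC6 and 13.6 to 17.1 in E14tg2a cells.

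**Figure D5:**
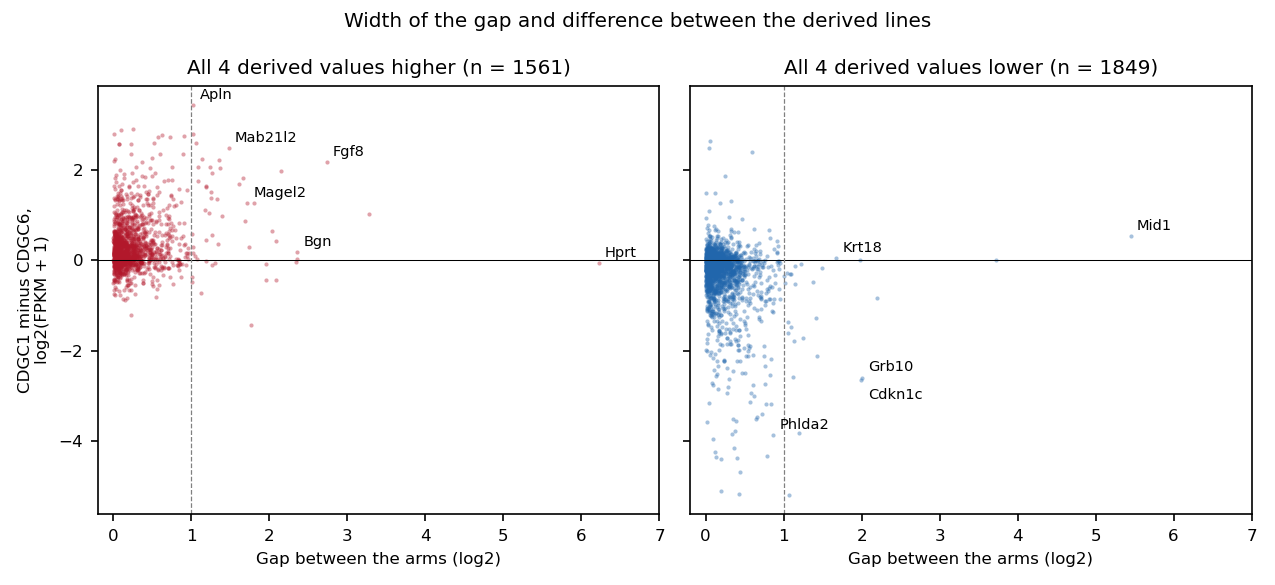
Gap between the arms on the x axis (log2) against the difference CDGC1 minus CDGC6 in log2(FPKM + 1) on the y axis, 1 point per gene without overlap, with a dashed line at a 2-fold gap. Hprt, Bgn and Krt18 lie near 0 on the y axis, while Fgf8 and Apln lie above it and Phlda2, Grb10 and Cdkn1c below it, where CDGC1 is farther from E14tg2a cells.

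Other genes with the widest gaps have varied roles. Among higher genes, Mab21l2, a developmental regulator, was at 25.5 and 26.1 FPKM in CDGC1, 4.29 and 3.42 in CDGC6, 0.525 and 0.589 in control and 0.0825 and 0.062 in Dnd1-KD cells. Pkdcc, a secreted kinase, was at 16.3 to 64.9 against 3.85 to 4.65 FPKM, Ppp4r4, a regulatory subunit of protein phosphatase 4, at 14.5 to 37.6 against 1.24 to 4.88, and Vrtn at 11.0 to 44.5 against 1.33 to 4.26. Trim67 and Psors1c2 separated by gaps of 1.25 and 1.26. The derived lines differed beyond the test in Mab21l2, Pkdcc, Ppp4r4, Vrtn and Trim67, with CDGC1 higher. Among lower genes, Inpp5d, a lipid phosphatase, was at 0.888 to 5.86 against 14.03 to 20.4 FPKM and the G protein-coupled receptor gene Gprc5a at 1.35 to 4.34 against 12.9 to 29.3. Edn1, endothelin 1, was at 0.923 to 2.23 against 5.11 to 8.97 FPKM, Rassf1 at 9.71 to 15.1 against 29.5 to 79.1 and the zinc transporter gene Slc30a2 at 1.91 to 4.8 against 10.2 to 11.5. Sall3, Oraov1, Arap2, Lrrc28, Vgll3, Cpped1 and Uspl1 were lower with gaps of 0.87 to 1.15.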

How the data were processed

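Poly(A) RNA of 8 libraries was prepared with TruSeq RNA kits and sequenced on a HiSeq2500, per the labels' protocols. The authors deposited 1 table of FPKM values per library, per the file headers from Cufflinks. TopHat2, Bowtie, Cufflinks, Cuffdiff and mm10 are named in the submitters' processing notes. Their versions and settings, and whether strand was used, are not given in the sources used here. FPKM keep no counts, so depth is known only through the fragments implied by the deposited intervals, 10.7 to 18.0 per library in units of 1e6, and 40.5% to 42.5% of low values came within 0.02 of whole fragments.

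From these tables, FPKM were summed per gene symbol and 26 symbols turned into dates were read back with GENCODE vM21. Entries with several symbols stayed joint (657 of the genes tested), and entries with no gene name, 76.8% to 85.6% of all FPKM, stayed out. Genes with at least 1 FPKM in at least 2 libraries were fitted with limma 3.58.1 (R 4.3.3) on log2(FPKM + 1), with 4 group means and eBayes with trend, two-sided. Benjamini-Hochberg adjustment ran over all genes tested at a threshold of 0.05. The fit was tested on simulated data. Tables and figures used Python 3.11.15, pandas 2.3.3, numpy 2.4.6 and matplotlib 3.10.9. Median log2 differences over lists or chromosomes were given with no test.

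Named genes were Dnd1, Hprt, members of the lists, genes at the edge of the rule and genes in the longest runs. To these came the 20 higher and 20 lower single-symbol genes with the widest gap whose higher arm averaged 5 FPKM or more. Genes with a library at 0 or a clone name, such as 4930470H14Rik, were left out of that set. Up to 10 genes per direction with a library at 0 were added. Erdr1, Apln, Map3k15, G530011O06Rik, Emb, Hspa1a/Hspa1b and the X-linked genes outside the lists were chosen after their values were seen. The members and the 36 gene lists were chosen with earlier results of these data known. A list of mitochondrially encoded genes matched no named entry. The 2 libraries of a group carried replicate numbers, which the main fit did not use to pair the groups. Alternatives covered the pseudocount, the filter, the scaling, the model, joint entries, zeros and the libraries left out.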

Additional observations from a re-analysis of the deposited data

Results flagged for a closer look

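Genes that separate the derived lines from E14tg2a cells also differed between the derived lines. In 1303 of the 3410 genes without overlap (38.2%) the contrast of CDGC1 with CDGC6 itself was called by limma. This is a smaller share than the 47.2% called over all genes tested. In 43 of the 229 named genes without overlap the difference between the lines was called and larger in size than that between the arms. In 9 of them a library was listed at 0, so that the size there is set by the pseudocount. Over all 3410 genes without overlap, the same held in 474. Among the 20 higher and 20 lower single-symbol genes chosen for wide gaps, only Irak3 met this criterion, with a log2 difference CDGC1 minus CDGC6 of -2.58. That choice left out genes with a library at 0, a clone name or a low mean. Outside it, 4930470H14Rik, Mogat2 and Apln met the criterion too, with gaps of at least 2-fold and no library at 0. Their differences CDGC1 minus CDGC6 were -5.18, 2.78 and 3.42, against -3.69, 2.60 and 3.34 between the arms. Within the 229 named genes, the largest differences with no library at 0 were -5.16 in Slc38a4, -4.69 in Mylpf and -4.23 in Cldn4, all lowest in CDGC1. The cause of the difference between the lines was not tested.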

How the results depend on the processing

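Across 25 alternatives, 5261 of 5620 values of 230 named genes kept their direction and their side of the threshold, 359 lost the call and 0 changed direction. Of the named genes, 229 were without overlap, so leaving out libraries could not turn their direction. The 0 is therefore a description. Of the lost calls, 85 came with 1 mean per arm and 228 with the libraries of a group averaged. With 1 mean per arm limma called 601 higher and 585 lower genes, 1186 in all. With averaged libraries it called 3 higher and 1 lower, 4 in all. A change of at least 2-fold was called in 443 higher and 607 lower genes, 1050 in all, and a gap of at least 2-fold was met by 52 and 27, 79 in all.

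Leaving out whole groups widened the set without overlap, as fewer values must separate. It held 2863 higher and 3289 lower genes, 6152 in all, without CDGC1, and 3161 and 3863, 7024 in all, without CDGC6. Without control cells it held 2841 and 3565, 6406 in all. Without Dnd1-KD cells the called genes came to 1932 higher and 2296 lower, 4228 in all. With no filter on low values 2807 lower genes had no overlap.

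Leaving out each library in turn gave 2368 to 3056 higher and 3186 to 3994 lower genes called, 5575 to 6869 in all. The genes without overlap came to 1560 to 1903 higher and 1789 to 2209 lower, 3470 to 4074 in all. Within those, CDGC1 against CDGC6 was called in 1164 to 1335 and Dnd1-KD against control in 487 to 1747. The lowest counts of the latter were 487 and 538 without a control library and 558 without replicate 2 of Dnd1-KD. The lone library is then assumed to vary like those of the other groups.

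The X median of 0.16 was 0.19 with quantile normalization, 0.24 with median-ratio scaling, 0.21 with a filter of 5 FPKM, 0.10 without CDGC1, 0.23 without CDGC6, and 0.11 to 0.18 when 1 library was left out. The median over all genes was -0.06, and 0.02 with median-ratio scaling and -0.01 with quantile normalization. The cause of these shifts was not tested.

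Deviations of same-numbered libraries correlated between -0.06 and 0.12 in the 6 group pairs, so the numbers do not pair the groups. A fit with the replicate number as a block called 6690 genes, 2917 higher and 3773 lower.

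Low values are limited by depth, which FPKM do not keep, and 637 tested genes had an exact 0 in at least 1 library. Only 2 lines stand for the derived arm, so differences between the arms cannot be told apart from differences of these particular lines. Entries that join several genes cannot be assigned to one of them, and near-identical copies can share reads.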
